A study of Homo sapiens with 9 samples.

Results

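The cytosolic ribosome is built from a large and a small subunit, and the genes for its protein components were read here across all libraries. Its members were the GENCODE rows of the count table whose symbol named a large subunit protein (RPL), a small subunit protein (RPS), an acidic stalk protein (RPLP0, RPLP1, RPLP2) or RPSA, pseudogenes left out. The pattern took 87 rows, and 1 of them, RPS10L, was dropped because GENCODE v29 types that gene as a processed pseudogene. The remaining 86 members, of 112171 annotated features in the table, comprised 46 large subunit genes, 31 small subunit genes and 9 paralogs. Paralogs here are related genes told by symbols ending in L or L1.

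The cells were PANC-1, an established epithelial line from a human pancreatic carcinoma, kept under hypoxia for 12 h. Cells received rakicidin A at 42 nM, BE-43547A1 at 41 nM or the solvent DMSO at 0.04%, with 3 libraries per group. Rakicidin A is a cyclic lipodepsipeptide made by bacteria, and BE-43547A1 is named here by its code alone. Every group was hypoxic and no library from cells in normal oxygen was analysed here. How much DMSO accompanied each compound is not stated in the labels. Whether replicates are separate cultures is not stated either, and the p-values below therefore measure only the spread between libraries, which may be technical.

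Most ribosomal proteins are needed in equal numbers, so a cell must match the output of many scattered genes. In mammals most of their mRNAs begin with a terminal oligopyrimidine tract, a cytosine followed by a run of pyrimidines, and the kinase complex mTORC1 adjusts their translation through this tract, in part by way of the protein LARP1. Free ribosomal proteins that do not find a ribosome are degraded, and some of them, RPL5 and RPL11 above all, bind the ubiquitin ligase MDM2. Several members have paralogs whose proteins can take their place in the ribosome.

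The start regions are shown for members with large called differences in either direction and for paralogs, since the pyrimidine run at the start is the feature by which this family is known. Each line holds 30 bases before and 20 bases from the RefSeq start of transcription on (GRCh38.p14, transcribed strand, 5′ to 3′), and capitals mark the longest run of C and T that touches the 10 bases on either side of that start.
RPS28 (chr19:8321466-8321515, plus strand): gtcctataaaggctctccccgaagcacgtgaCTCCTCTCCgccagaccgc
RPL28 (chr19:55385902-55385951, plus strand): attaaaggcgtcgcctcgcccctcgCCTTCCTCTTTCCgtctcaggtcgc
RPL24 (chr3:101686699-101686748, minus strand): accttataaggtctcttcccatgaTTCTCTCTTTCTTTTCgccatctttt
RPL12 (chr9:127451387-127451436, minus strand): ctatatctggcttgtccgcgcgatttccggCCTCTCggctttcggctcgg
RPS16 (chr19:39435930-39435979, minus strand): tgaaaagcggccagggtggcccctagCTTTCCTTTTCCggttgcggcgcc
RPL36A (chrX:101390981-101391030, plus strand): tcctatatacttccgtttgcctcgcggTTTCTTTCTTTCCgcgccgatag
RPL22 (chr1:6199576-6199625, minus strand): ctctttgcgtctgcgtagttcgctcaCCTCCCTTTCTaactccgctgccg
RPL22L1 (chr3:170870176-170870225, minus strand): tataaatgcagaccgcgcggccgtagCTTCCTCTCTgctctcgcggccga
RPL36AL (chr14:49620607-49620656, minus strand): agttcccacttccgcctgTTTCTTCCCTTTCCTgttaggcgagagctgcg
RPL26L1 (chr5:172958699-172958748, plus strand): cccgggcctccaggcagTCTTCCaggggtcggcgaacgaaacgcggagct
RPL7L1 (chr6:42879586-42879635, plus strand): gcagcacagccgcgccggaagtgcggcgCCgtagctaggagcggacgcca
RPS27L (chr15:63157458-63157507, minus strand): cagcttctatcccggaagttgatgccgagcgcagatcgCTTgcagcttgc

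RPL24, RPL28, RPL36A and RPL22 had runs of 16, 13, 13 and 11 pyrimidines, although the first 2 were higher than in DMSO after BE-43547A1 and the last 2 were lower after both compounds. RPS16 had a run of 12, and RPL12, which rose after BE-43547A1, a run of 6. Among the paralogs, RPL36AL and RPL22L1 carried runs of 15 and 10, whereas RPL26L1, RPL7L1 and RPS27L had at most 6. A run of at least 8 was found in 51 of the 62 canonical (not paralogous) tested members with a RefSeq promoter (82.3%), in 2 of 6 paralogs and in 15.6% of all 35116 promoters in the table. A run of at least 8 purines, the same pattern on the other strand, was found in 1 of these 62 members and in 13.2% of all promoters. The letters CTTTCC lay within the printed window in 17 of 62 members (27.4%) and in 2.58% of all promoters, and their reverse complement GGAAAG in 0 of 62 and 2.08%. The letters CTTCCG, on either strand of the 300 bases from 250 before to 50 after the start, were present in 39 of 62 members and in 19.5% of all promoters. CTTTCC is made of pyrimidines and can lie inside a run, and its end can overlap the start of CTTCCG. A match of either describes these letters only. Among canonical members with a RefSeq promoter, the median run was 10 bases in the 12 that rose after rakicidin A and 12 in the 17 that fell. After BE-43547A1 it was 11.5 bases in the 34 that rose and 10.5 in the 8 that fell.

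Counts on annotated features came to 26203326 to 34870860 per library after rakicidin A, 39807220 to 45048999 after BE-43547A1 and 27696394 to 30596594 in DMSO. Of the 86 members, 83 had enough counts to be tested, and 3 did not, among them RPL10L and RPL3L. Reads placed at more than 1 site were left uncounted. They were 19.1 to 19.8% of the reads after rakicidin A, 20.8 to 22.2% after BE-43547A1 and 20.8 to 22.4% in DMSO. All rakicidin A libraries thus lay below the others, and the part of this difference in the member counts was not tested. Among the DMSO libraries replicate 3 stood apart. Its counts differed from those of replicates 1 and 2 by a chi-square per degree of freedom of 18.9 and 17.1, against 2.86 to 9.11 for all other pairs within a group, and its mitochondrially encoded share was 0.520% against 0.247 to 0.334% in the other 8 libraries. Levels are given as CPM, which are counts relative to the TMM-scaled library size, except for the marker sums that follow. Those sums are CPM relative to all counts on annotated features, without TMM factors, and are not on the scale of the other levels. The TMM factors given below were lower after both compounds than in DMSO, so differences between groups in these sums depend on the scaling. The 6 epithelial markers summed to 2157 to 2282 CPM after rakicidin A, 3243 to 3591 CPM after BE-43547A1 and 3274 to 3483 CPM in DMSO. The 5 fibroblast markers, none at 0 throughout, summed to 3.62 to 4.96, 4.60 to 6.39 and 7.80 to 12.5 CPM in the same order, and the 6 leukocyte markers to 2.18 to 2.56, 3.47 to 4.37 and 1.92 to 2.45 CPM, with CD3E at 0. The 2 endothelial markers with a row, the 3 acinar markers and the 2 islet markers (INS at 0) each summed to at most 0.266 CPM. The part of these marker levels in the results was not tested.

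Ribosomal protein genes took a smaller share of the counts after rakicidin A than in the other groups, on a scale of total counts where the median of all features was lower as well. The 86 members held 1.31, 1.25 and 1.22% of the counts after rakicidin A, 1.58, 1.64 and 1.59% after BE-43547A1 and 1.63, 1.78 and 1.61% in DMSO. All rakicidin A libraries lay below all libraries of the other groups, whereas BE-43547A1 and DMSO overlapped. On that scale the median log2 fold change of rakicidin A against DMSO was -0.40 for members and -0.38 for all tested features. Large subunit genes held 0.762 ± 0.036% after rakicidin A, 0.978 ± 0.018% after BE-43547A1 and 1.01 ± 0.06% in DMSO (mean ± SD, n = 3 libraries each). The small subunit share was 0.459 ± 0.013%, 0.590 ± 0.015% and 0.618 ± 0.025% in the same order. Rows of the 819 pseudogenes named after a member held 0.333 ± 0.005%, 0.400 ± 0.004% and 0.443 ± 0.036%. In bulk RNA a lower share of a gene family, fewer cells that express it and less RNA per cell cannot be told apart.

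**Figure D1:**
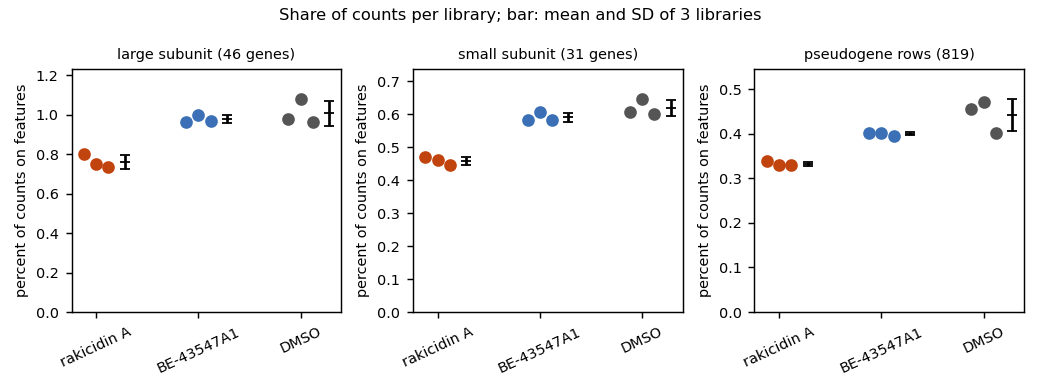
Percent of all counts on annotated features, per library, taken by large subunit genes, small subunit genes and ribosomal protein pseudogene rows (vertical axes start at 0; black bars are mean and SD of 3 libraries). For both subunits the rakicidin A libraries lie below those of the other groups, at 0.733 to 0.802% for the large subunit.

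Levels differed widely between members. As CPM divided by the coding length in kilobases, the 76 canonical tested members had a median of 296.5 after rakicidin A, 317 after BE-43547A1 and 293 in DMSO. RPL38, a small protein of the large subunit, was the highest in all groups, at 2650, 3656 and 3202 CPM per coding kilobase in that order. Members with many pseudogenes read lower: the DMSO median was 145 CPM per coding kilobase for the 43 with 6 or more pseudogene rows and 363 for the 33 with 0 to 5. Across the 76 genes the Spearman correlation of level with the number of pseudogene rows was -0.37 after rakicidin A, -0.39 after BE-43547A1 and -0.36 in DMSO, as a description over genes that share libraries. Reads that fit a pseudogene as well as its gene are among the uncounted ones, so these levels are not read as amounts of mRNA. The median log2 fold change against DMSO was -0.06 after rakicidin A with 6 or more pseudogene rows and -0.05 with fewer, and 0.13 and 0.27 after BE-43547A1.

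After rakicidin A, ribosomal protein genes moved in both directions by small amounts. Of the 83 tested members 16 rose and 23 fell, and 44 did not pass, beside 31.9% of all 22353 tested features that rose and 32.7% that fell, 64.7% in either direction (edgeR quasi-likelihood test on TMM-scaled counts, Benjamini-Hochberg adjusted p below 0.05 over all features). Whichever single library was left out, 12 of the 16 and 13 of the 23 remained called. The median log2 fold change was -0.05 for members and -0.02 for all features. Of the 46 large subunit genes 8 rose and 13 fell, of the 30 tested small subunit genes 5 and 8, and of the 7 tested paralogs 3 and 2. CPM of rakicidin A and DMSO did not overlap for 15 higher and 19 lower members, beside 33.3% and 34.2% of all features.

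After BE-43547A1, more members rose than fell. There were 42 that rose, 14 that fell and 27 that did not pass, beside 35.3% of all features that rose and 35.1% that fell, 70.4% in either direction. Of the 42, 33 remained called whichever library was left out, and of the 14, 8. The median log2 fold change was 0.19 for members and 0.00 for all features. Large subunit genes rose in 24 cases and fell in 5, small subunit genes in 17 and 5, and paralogs in 1 and 4. CPM of BE-43547A1 and DMSO did not overlap for 40 higher and 11 lower members, beside 35.7% and 35.9% of all features. Both comparisons share the DMSO libraries.

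Set against each other, rakicidin A gave lower values than BE-43547A1 for 43 members and higher values for 7, beside 22.5% of all features that were lower and 24.1% that were higher, 46.6% in either direction. Whichever library was left out, 30 of the 43 and 4 of the 7 remained called. The median log2 difference was -0.19 for members and -0.02 for all features. Lower after rakicidin A were 24 of 46 large subunit genes, 18 of 30 small subunit genes and 1 of 7 paralogs, and higher were 2, 1 and 4. CPM of the compounds did not overlap for 48 lower and 10 higher members, beside 28.3% and 29.2% of all features. The doses differed slightly, at 42 and 41 nM.

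These counts depend on the scaling. TMM factors were 0.890 to 0.898 after rakicidin A, 0.963 to 0.989 after BE-43547A1 and 1.14 to 1.15 in DMSO. With libraries scaled by total counts alone, the median log2 fold change of all features was -0.38 for rakicidin A against DMSO, -0.24 for BE-43547A1 against DMSO and -0.14 for rakicidin A against BE-43547A1. Members then had medians of -0.40, -0.05 and -0.31. After rakicidin A 3 rose and 66 fell (20.0% and 51.0% of all features, 71.0% in all), after BE-43547A1 19 rose and 32 fell (26.6% and 46.7%, 73.4% in all), and rakicidin A was lower than BE-43547A1 for 59 and higher for 4 (30.7% and 17.6%, 48.3% in all). A change of scaling shifts all features by nearly the same amount, so the distance between the member median and that of all features could hardly change. The member median lay below the other by 0.02 after rakicidin A, above it by 0.19 after BE-43547A1, and below it by 0.17 between the compounds. Below, calls and genes that did not pass refer to TMM unless total counts are named.

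**Figure D2:**
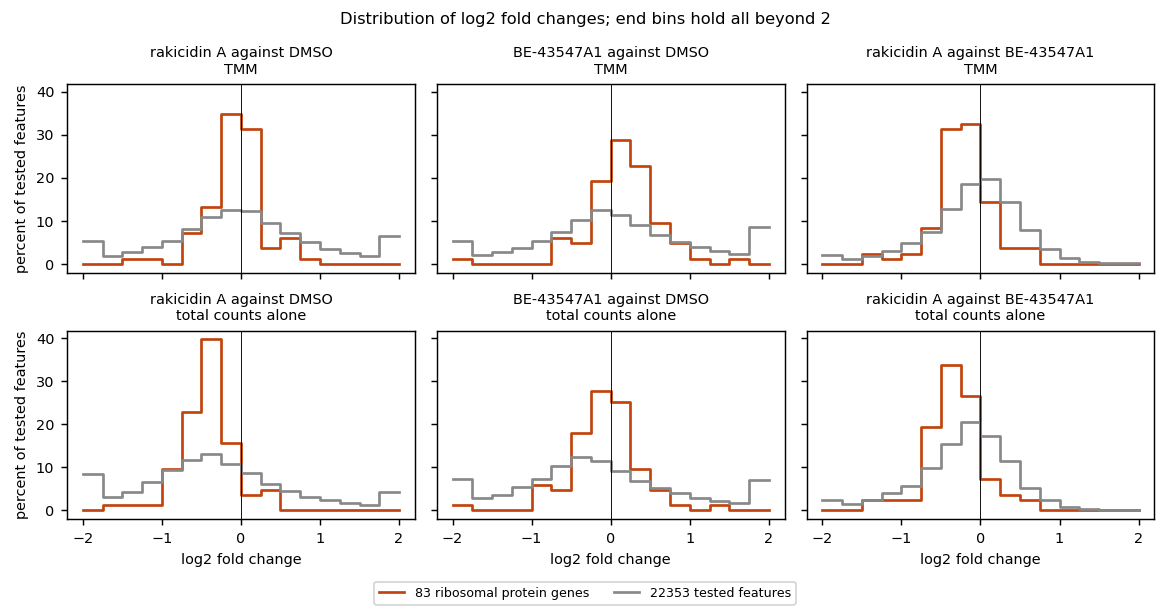
Share of genes (percent, vertical) in bins of log2 fold change (horizontal, 0.25 wide, end bins hold all beyond 2) for the 83 tested ribosomal protein genes and all 22353 tested features, with TMM (upper row) and total counts alone (lower row). Members are narrower than all features in every panel, and their peak lies below 0 between the compounds with either scaling.

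Among large subunit genes, RPL12, RPL28 and RPL24 were the ones with the largest rise after BE-43547A1. RPL12, which forms the base of the stalk where elongation factors dock, had 93.4, 88.3 and 74.6 CPM after rakicidin A, 171, 151 and 124 CPM after BE-43547A1 and 66.4, 76.2 and 69.9 CPM in DMSO. Its log2 fold change from DMSO was 0.27 ± 0.10 after rakicidin A (edgeR, adjusted p = 0.0211) and 1.07 ± 0.10 after BE-43547A1 (adjusted p = 1.42e-08). The BE-43547A1 libraries were all above the others, while rakicidin A and DMSO overlapped. RPL28, a surface protein of the large subunit, had 92.8, 95.5 and 93.3 CPM after rakicidin A, 142, 127 and 113 CPM after BE-43547A1 and 62.1, 56.1 and 77.0 CPM in DMSO. The corresponding log2 fold changes against DMSO were 0.53 ± 0.09 after rakicidin A (edgeR, adjusted p = 7.14e-05) and 0.97 ± 0.09 after BE-43547A1 (adjusted p = 3.03e-08). No 2 groups overlapped, and rakicidin A lay between the others. RPL24, which reaches from the large subunit into a bridge to the small one, had 138, 153 and 130.2 CPM after rakicidin A, 282, 284 and 250.4 CPM after BE-43547A1 and 143, 161 and 129 CPM in DMSO. Rakicidin A and DMSO overlapped for RPL24 (-0.03 ± 0.08, edgeR, adjusted p = 0.719), whereas all BE-43547A1 libraries were higher (0.92 ± 0.08, adjusted p = 5.72e-09). Rakicidin A against BE-43547A1 gave -0.95 ± 0.08 (edgeR, adjusted p = 2.24e-08) for RPL24, -0.80 ± 0.10 for RPL12 (adjusted p = 2.26e-06) and -0.44 ± 0.09 for RPL28 (adjusted p = 0.000692). Here and below ± on a log2 fold change is its standard error. The call of RPL12 after rakicidin A was lost without replicate 1 (adjusted p = 0.0939) or 2 (0.0555) of rakicidin A or replicate 1 (0.0693) of DMSO. Under total counts alone RPL28 no longer passed after rakicidin A (0.17) and RPL12 turned to -0.09.

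RPL13A, which also serves in a complex that silences inflammatory mRNAs, had 70.8, 68.8 and 69.8 CPM after rakicidin A, 76.5, 72.3 and 68.2 CPM after BE-43547A1 and 51.4, 50.5 and 44.4 CPM in DMSO. Both compounds lay above DMSO without overlap, and they overlapped each other. Relative to DMSO, RPL13A had a log2 fold change of 0.52 ± 0.07 after rakicidin A (edgeR, adjusted p = 1.26e-06) and of 0.57 ± 0.06 after BE-43547A1 (adjusted p = 2.81e-07). RPL21, another large subunit protein, had 22.8, 22.7 and 23.2 CPM after rakicidin A, 20.9, 20.1 and 24.4 CPM after BE-43547A1 and 18.3, 20.2 and 18.0 CPM in DMSO. Its rise after rakicidin A (0.28 ± 0.08, edgeR, adjusted p = 0.00588) turned to -0.08 with total counts alone, where that of RPL13A shrank to 0.16. RPL9, a large subunit protein near the stalk, had 19.3, 21.1 and 19.6 CPM after rakicidin A, 15.6, 13.9 and 16.4 CPM after BE-43547A1 and 17.5, 17.0 and 17.3 CPM in DMSO. It was among the few members higher after rakicidin A than after BE-43547A1, by 0.39 ± 0.08 (edgeR, adjusted p = 0.00051), and no 2 groups overlapped. Against DMSO it had 0.21 ± 0.08 after rakicidin A (edgeR, adjusted p = 0.024), a call lost without replicate 2 (adjusted p = 0.0854) of rakicidin A or replicate 2 (0.059) of DMSO.

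RPL36A had the largest fall of the members that passed, after each compound. This protein sits at the exit site for transfer RNA. RPL36A had 15.2, 14.7 and 14.9 CPM after rakicidin A, 8.32, 8.28 and 10.2 CPM after BE-43547A1 and 31.5, 34.5 and 32.2 CPM in DMSO. The groups did not overlap, and BE-43547A1 was the lowest. Against DMSO, the log2 fold change was -1.13 ± 0.08 after rakicidin A (edgeR, adjusted p = 8.44e-10) and -1.87 ± 0.09 after BE-43547A1 (adjusted p = 6.60e-13). Rakicidin A exceeded BE-43547A1 by 0.74 ± 0.09 (edgeR, adjusted p = 1.94e-06). A read-through row that joins RPL36A to HNRNPH2 is also annotated and is at 0 in every library, so reads shared by both could have been left out as ambiguous, and the RPL36A level is uncertain for that reason.

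RPL22, an RNA-binding protein that ribosomes can lack, had 157, 145 and 159 CPM after rakicidin A, 155, 172 and 175 CPM after BE-43547A1 and 245, 259 and 235 CPM in DMSO. Its log2 fold change from DMSO was -0.68 ± 0.06 after rakicidin A (edgeR, adjusted p = 1.52e-08) and -0.56 ± 0.06 after BE-43547A1 (adjusted p = 1.97e-07). All treated libraries lay below all DMSO libraries, and the compounds overlapped (-0.13 ± 0.06, edgeR, adjusted p = 0.106, 95% interval -0.26 to 0.00). RPL39, a very small protein in the wall of the exit tunnel, had 5.35, 6.04 and 5.15 CPM after rakicidin A, 5.35, 5.68 and 5.36 CPM after BE-43547A1 and 7.49, 8.12 and 9.55 CPM in DMSO. The corresponding log2 fold changes against DMSO were -0.60 ± 0.11 after rakicidin A (edgeR, adjusted p = 0.000146) and -0.62 ± 0.11 after BE-43547A1 (adjusted p = 5.80e-05). Every treated library was below DMSO for RPL39 too, and the difference between the compounds was 0.02 ± 0.12 (edgeR, adjusted p = 0.911), with a 95% interval of -0.23 to 0.26.

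The other large subunit genes that rose after rakicidin A were RPL4 (0.23), RPL9 (0.21), RPL35A (0.20) and RPL19 (0.18). All of these were below 0 with total counts alone, at -0.13, -0.14, -0.16 and -0.18. Only RPL19 passed there, as lower (edgeR, adjusted p = 0.0283). RPL35A was lost without replicate 2 (adjusted p = 0.0531) of rakicidin A or replicate 3 (0.105) of DMSO, and RPL19 without replicate 1 (adjusted p = 0.101) of rakicidin A or replicate 1 (0.127) or 3 (0.0616) of DMSO. Others that fell were RPL7 (-0.50), RPL31 (-0.39), RPL35 (-0.36), RPL23A (-0.28), RPL38 (-0.27), RPL36 (-0.23), RPL34 (-0.23) and RPL7A (-0.21), beside RPLP0. Calls among these were lost for RPL23A without replicate 1 (adjusted p = 0.0633) or 2 (0.0564) of rakicidin A or replicate 2 (0.101) of DMSO, for RPL34 without replicate 1 (adjusted p = 0.0562) or 3 (0.0744) of rakicidin A or replicate 2 (0.112) of DMSO and for RPL7A without replicate 3 (adjusted p = 0.0798) of rakicidin A. RPL7A, RPL23A and RPL38 had 0.30, 0.29 and 0.19 after BE-43547A1 and passed there as well, in the opposite direction. The rise of RPL23A was lost without replicate 1 (edgeR, adjusted p = 0.0525) of DMSO. That of RPL38 was lost without replicate 2 (adjusted p = 0.0785) of BE-43547A1 or replicate 1 (0.0678) of DMSO. With total counts alone none of these rises passed (0.06, 0.06 and -0.05). After BE-43547A1, RPL8, RPL35A, RPL3, RPL19, RPL27 and RPL18 rose by 0.57, 0.54, 0.47, 0.46, 0.43 and 0.39 (log2), and all 6 also passed with total counts alone (0.15 to 0.34). They were 6 of the 10 large subunit genes, among the 24 that rose after BE-43547A1, for which the call held under that scaling. The next in size, RPL17 (0.37), RPL10 (0.35) and RPL37A (0.35), did not pass there (0.13, 0.12 and 0.12), and RPL10 was also lost without replicate 3 (adjusted p = 0.0619) of DMSO. RPL3 lies close to the peptidyl transferase center, and RPL8 is a conserved protein near it. The other large subunit genes that fell were RPL41 (-0.30), which encodes the shortest of the ribosomal proteins, and RPL7 (-0.28), lost without replicate 1 (adjusted p = 0.0821) or 2 (0.0636) of BE-43547A1 or replicate 1 (0.102) of DMSO. RPL5 and RPL11, the partners of MDM2, did not pass after rakicidin A (0.06 and -0.01, or -0.30 and -0.37 with total counts alone, both called lower). In BE-43547A1 libraries RPL5 did not pass (0.04) and RPL11 had 0.18 ± 0.05 (edgeR, adjusted p = 0.00757), which turned to -0.06 with total counts alone.

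**Figure D3:**
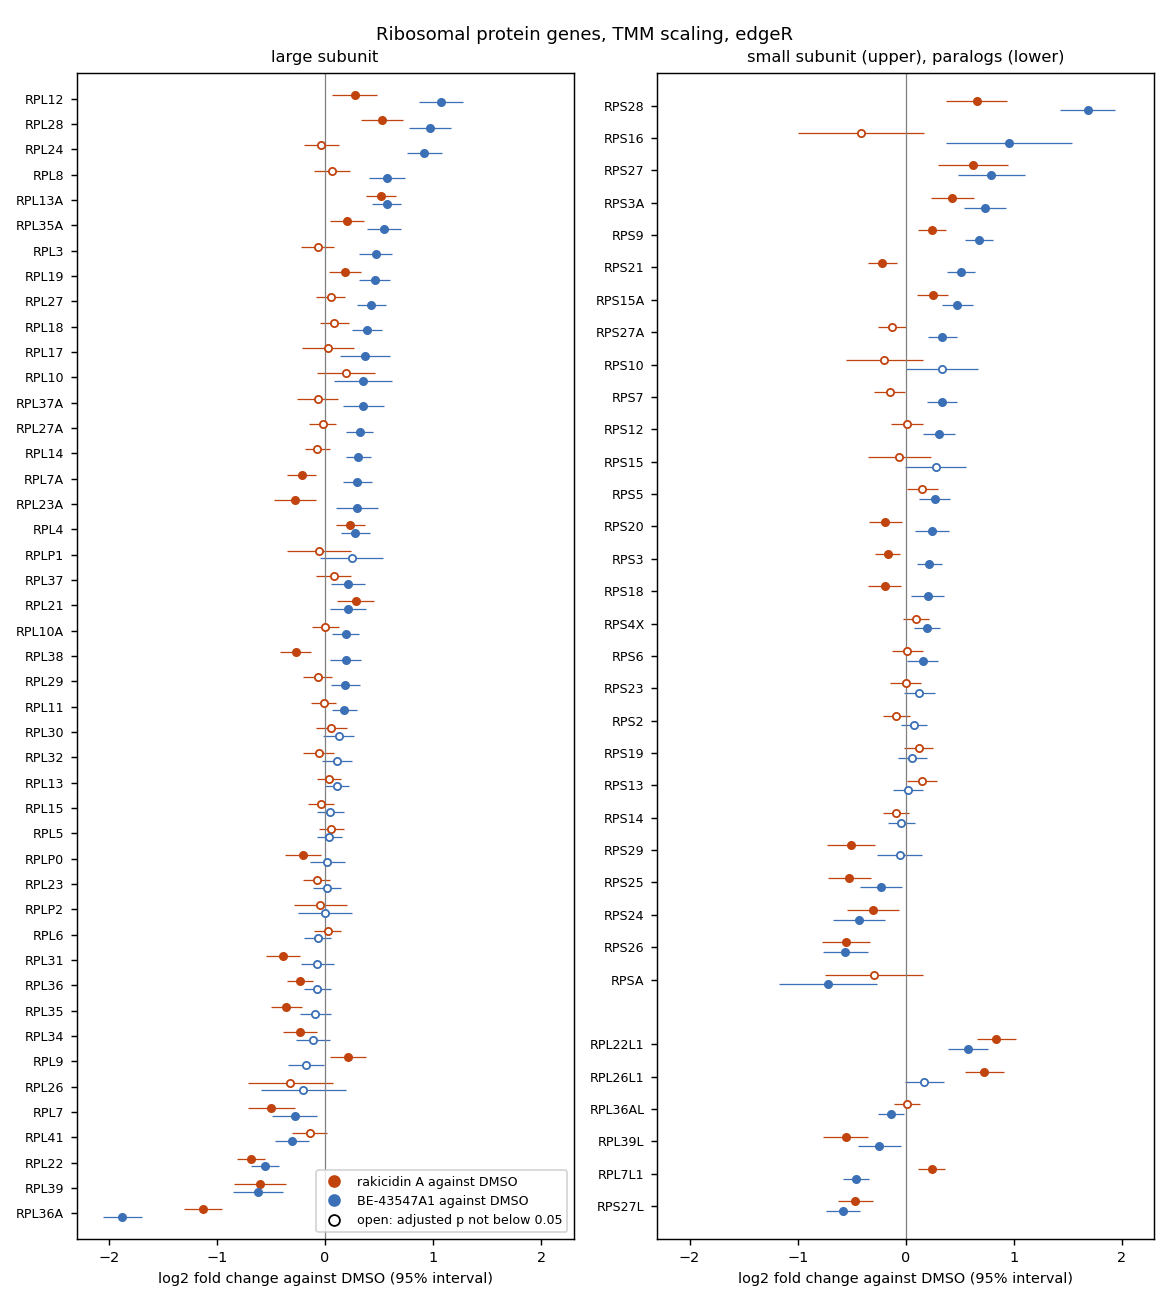
Log2 fold change against DMSO (horizontal, with 95% interval) of tested members, ordered within each class by the value after BE-43547A1, with rakicidin A drawn above BE-43547A1 for each gene and open points where the adjusted p was not below 0.05. Most BE-43547A1 points lie right of the rakicidin A points, and of the genes plotted RPL36A lies farthest to the left, at -1.13 and -1.87.

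In the small subunit RPS28 rose most. This protein lies where mRNA leaves the subunit. RPS28 had 5.24, 4.67 and 5.15 CPM after rakicidin A, 10.7, 11.2 and 8.65 CPM after BE-43547A1 and 3.42, 3.25 and 2.87 CPM in DMSO. Relative to DMSO, RPS28 had a log2 fold change of 0.66 ± 0.13 after rakicidin A (edgeR, adjusted p = 0.000318) and of 1.68 ± 0.12 after BE-43547A1 (adjusted p = 5.70e-10). No 2 groups overlapped, and rakicidin A was lower than BE-43547A1, with a log2 difference of -1.03 ± 0.12 (edgeR, adjusted p = 1.14e-06). RPS27, a zinc finger protein of the small subunit, had 10.1, 7.26 and 6.62 CPM after rakicidin A, 8.86, 10.6 and 7.53 CPM after BE-43547A1 and 5.65, 4.71 and 5.23 CPM in DMSO. Against DMSO, the log2 fold change was 0.62 ± 0.15 after rakicidin A (edgeR, adjusted p = 0.00169) and 0.79 ± 0.15 after BE-43547A1 (adjusted p = 0.000108). All treated libraries were above DMSO and the compounds overlapped. RPS3A, which sits near the mRNA exit, had 52.2, 68.0 and 53.01 CPM after rakicidin A, 74.4, 64.4 and 75.1 CPM after BE-43547A1 and 38.8, 44.1 and 45.8 CPM in DMSO. Its log2 fold change from DMSO was 0.43 ± 0.09 after rakicidin A (edgeR, adjusted p = 0.00053) and 0.73 ± 0.09 after BE-43547A1 (adjusted p = 1.07e-06). Treated libraries lay above DMSO and the compounds overlapped. None of the 3 passed with total counts alone after rakicidin A, at 0.30 for RPS28, 0.27 for RPS27 and 0.07 for RPS3A.

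RPS16 and RPS21 separated the compounds. RPS16, whose tail reaches the transfer RNA in the peptidyl site, had 135, 152 and 142 CPM after rakicidin A, 337, 441 and 329.6 CPM after BE-43547A1 and 124, 103 and 344 CPM in DMSO. DMSO replicate 3 was far above the other DMSO libraries. All rakicidin A libraries were below all BE-43547A1 libraries, with a log2 difference of -1.37 ± 0.28 (edgeR, adjusted p = 0.000592). Against DMSO, RPS16 gave 0.95 ± 0.28 after BE-43547A1 (edgeR, adjusted p = 0.00505), which was 1.69 without DMSO replicate 3, and DESeq2 did not call it (adjusted p = 0.0733). After rakicidin A, RPS16 had -0.41 ± 0.28 against DMSO (edgeR, adjusted p = 0.205). It was called lower without DMSO replicate 1 (-0.64, adjusted p = 0.0456) or 2 (-0.71, 0.0125) and with total counts alone (-0.77), and higher without DMSO replicate 3 (0.33, 0.00501). RPS21 had 148, 129 and 152 CPM after rakicidin A, 231, 236 and 243 CPM after BE-43547A1 and 174, 165 and 159.8 CPM in DMSO. Its groups did not overlap: rakicidin A was lowest (-0.22 ± 0.06 against DMSO, edgeR, adjusted p = 0.00569) and BE-43547A1 highest (0.51 ± 0.06, adjusted p = 7.74e-07), and the compounds differed by -0.72 ± 0.06 (edgeR, adjusted p = 4.06e-08). Without replicate 2 (adjusted p = 0.0897) of rakicidin A the fall after rakicidin A was no longer called. Other members of either subunit that were lower after rakicidin A than after BE-43547A1 included RPL23A, with a log2 difference of -0.57, and RPL36, with -0.16, lost without replicate 2 (adjusted p = 0.145) or 3 (0.112) of rakicidin A or replicate 2 (0.114) or 3 (0.0818) of BE-43547A1.

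RPS26, RPS25, RPS29 and RPS24 fell after at least 1 compound. RPS26, part of the mRNA exit channel, had 4.55, 4.80 and 4.85 CPM after rakicidin A, 4.75, 4.82 and 4.55 CPM after BE-43547A1 and 6.72, 7.26 and 6.82 CPM in DMSO. The corresponding log2 fold changes against DMSO were -0.55 ± 0.10 after rakicidin A (edgeR, adjusted p = 0.000149) and -0.56 ± 0.10 after BE-43547A1 (adjusted p = 6.89e-05). Treated and DMSO libraries did not overlap. RPS25, which viral mRNAs with internal entry sites need, had 233, 206 and 203 CPM after rakicidin A, 227, 283 and 277 CPM after BE-43547A1 and 261, 347 and 314 CPM in DMSO. Its fall after rakicidin A was -0.52 ± 0.09 (edgeR, adjusted p = 8.04e-05), and BE-43547A1 overlapped both other groups (-0.23 ± 0.09, adjusted p = 0.0364). The BE-43547A1 value was no longer called without replicate 2 (adjusted p = 0.0537) of rakicidin A, replicate 1 (0.285) of BE-43547A1 or replicate 2 (0.197) of DMSO. RPS29 had 9.64, 9.24 and 11.9 CPM after rakicidin A, 14.1, 13.5 and 14.1 CPM after BE-43547A1 and 15.6, 15.3 and 12.6 CPM in DMSO. Rakicidin A lay below both other groups for RPS29, with -0.51 ± 0.10 against DMSO (edgeR, adjusted p = 0.000334), while BE-43547A1 overlapped DMSO. RPS24, mutated in some patients with Diamond-Blackfan anemia, had 531, 505 and 489.8 CPM after rakicidin A, 406, 502 and 486 CPM after BE-43547A1 and 482, 774 and 626 CPM in DMSO. DMSO replicate 1 lay within the BE-43547A1 range, and the value of -0.43 ± 0.11 after BE-43547A1 (edgeR, adjusted p = 0.0026) was -0.26 without DMSO replicate 2. After rakicidin A RPS24 had -0.30 ± 0.11 (edgeR, adjusted p = 0.0275), lost without replicate 1 (adjusted p = 0.0502), 2 (0.0842) or 3 (0.104) of rakicidin A or replicate 2 (0.285) of DMSO.

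The other small subunit genes that rose after rakicidin A were RPS15A (0.25) and RPS9 (0.24), and the others that fell were RPS18 (-0.20), RPS20 (-0.19) and RPS3 (-0.17). RPS18, RPS20 and RPS3 had 0.20, 0.24 and 0.22 after BE-43547A1 and passed there as well, in the opposite direction. The falls after rakicidin A were lost for RPS18 without replicate 2 (adjusted p = 0.0645) or 3 (0.162) of rakicidin A or replicate 1 (0.051) or 2 (0.191) of DMSO, for RPS20 without replicate 1 (adjusted p = 0.0782), 2 (0.0774) or 3 (0.146) of rakicidin A, replicate 2 (0.0586) or 3 (0.0549) of BE-43547A1 or replicate 1 (0.152) or 2 (0.165) of DMSO and for RPS3 without replicate 1 (adjusted p = 0.0752) or 3 (0.0997) of rakicidin A or replicate 1 (0.0668) of DMSO. The rise of RPS18 after BE-43547A1 was lost without replicate 3 (adjusted p = 0.0985) of DMSO, and none of these rises passed with total counts alone (-0.04, 0.005 and -0.02). RPS9, at the mRNA entry, and RPS15A had 0.68 and 0.48 after BE-43547A1 and passed with either scaling (0.44 and 0.24 by total counts). After rakicidin A, RPS15A and RPS9 scaled by total counts alone turned to -0.11 and -0.12.

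**Figure D4:**
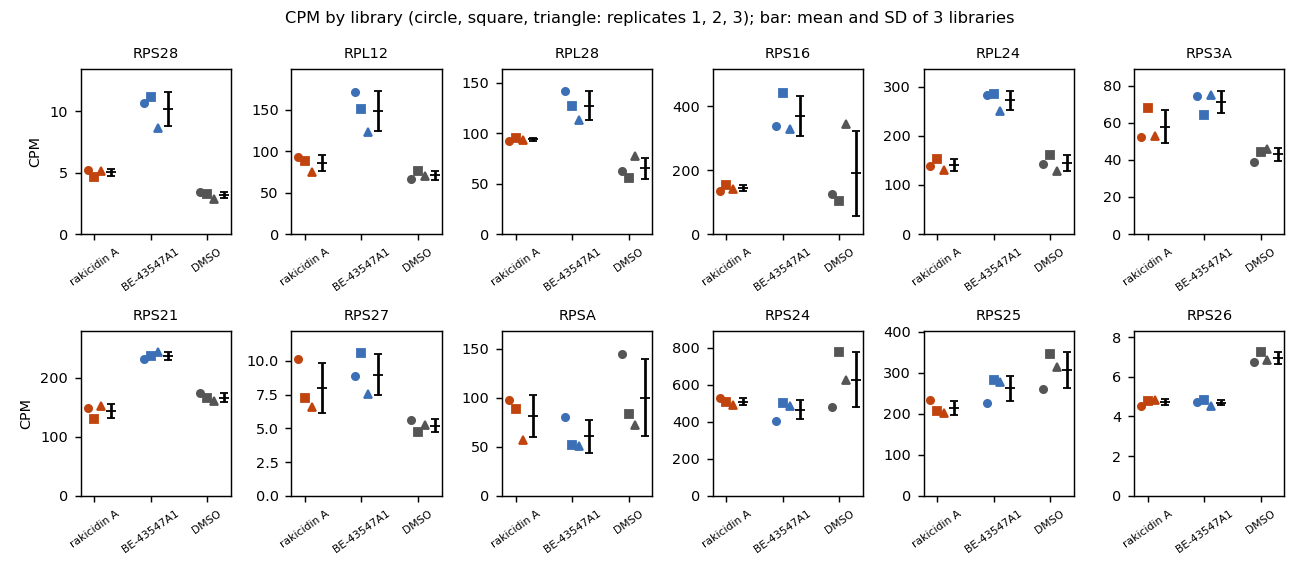
CPM (vertical axes start at 0) of 12 members in each library by group, with circle, square and triangle for replicates 1, 2 and 3 and black bars for mean and SD of 3 libraries. RPS28, RPL12, RPL24 and RPS21 are highest after BE-43547A1, and RPS16 shows DMSO replicate 3 at 344 CPM.

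The stalk proteins, which recruit the translation factors that hydrolyse GTP, gave few calls. RPLP0, the stalk's anchor, had 228, 229 and 216 CPM after rakicidin A, 298, 249.97 and 241 CPM after BE-43547A1 and 283, 265 and 230.4 CPM in DMSO. Rakicidin A lay below both other groups, at -0.21 ± 0.08 against DMSO (edgeR, adjusted p = 0.0279) and -0.23 ± 0.08 against BE-43547A1 (adjusted p = 0.0237). The call against DMSO was lost when any rakicidin A library (adjusted p = 0.0656 to 0.132), DMSO replicate 1 (0.147) or DMSO replicate 2 (0.0704) was left out, and that against BE-43547A1 without any rakicidin A library (0.0528 to 0.110) or BE-43547A1 replicate 1 (0.160). RPLP1 had 85.7, 75.5 and 79.6 CPM after rakicidin A, 86.0, 108 and 103 CPM after BE-43547A1 and 64.9, 72.0 and 114 CPM in DMSO. DMSO replicate 3 was above the other DMSO libraries, and without it RPLP1 passed as higher after rakicidin A (0.23, edgeR, adjusted p = 0.0156) and after BE-43547A1 (0.52, adjusted p = 4.44e-06). With all libraries RPLP1 had -0.06 ± 0.14 after rakicidin A (edgeR, adjusted p = 0.737) and 0.25 ± 0.14 after BE-43547A1 (adjusted p = 0.122). Between the compounds it had -0.30 ± 0.14 (edgeR, adjusted p = 0.0839), and it passed without BE-43547A1 replicate 1 (adjusted p = 0.04) or DMSO replicate 1 (0.0414) or 3 (0.00123). Total counts alone (-0.42, adjusted p = 0.0198), no filter (2.03e-05) and the 6 libraries alone (0.00087) gave that call as well. After rakicidin A, RPLP1 was called lower with total counts alone (-0.42, adjusted p = 0.0146), opposite to the rise without DMSO replicate 3. After BE-43547A1 it was also called higher with no filter (adjusted p = 0.000574) and without BE-43547A1 replicate 1 (0.044). RPLP2, with 816 ± 100.2 CPM after rakicidin A, 841 ± 171 CPM after BE-43547A1 and 841 ± 105 CPM in DMSO (mean ± SD, n = 3 libraries each), passed in no comparison under TMM, and the groups overlapped. With total counts alone RPLP2 was called lower after rakicidin A (-0.40, edgeR, adjusted p = 0.00497).

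RPSA, a small subunit protein also known as a laminin receptor, had 97.8, 88.9 and 57.4 CPM after rakicidin A, 80.1, 51.7 and 50.9 CPM after BE-43547A1 and 145, 83.3 and 72.6 CPM in DMSO. DMSO replicate 1 was the highest library, and every pair of groups overlapped. The fall after BE-43547A1 was -0.72 ± 0.22 (edgeR, adjusted p = 0.00643). It was -0.36 without DMSO replicate 1 (adjusted p = 0.0765), and DESeq2 did not call it (adjusted p = 0.0757). After rakicidin A RPSA did not pass (-0.30 ± 0.22, adjusted p = 0.237 by edgeR). It passed there with total counts alone (-0.65, adjusted p = 0.0144), with no filter (-0.30, 6.19e-05) and without DMSO replicate 3 (-0.48, 0.0365). The compounds differed by 0.42 ± 0.22 (edgeR, adjusted p = 0.123), which passed with no filter (adjusted p = 1.63e-07), with the 6 libraries alone (0.0243) and without rakicidin A replicate 3 (adjusted p = 0.0297), BE-43547A1 replicate 1 (0.0244) or DMSO replicate 1 (0.032). With the replicate number as a block RPSA also passed after rakicidin A (adjusted p = 0.0314) and between the compounds (0.00302).

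The paralogs moved apart from their parent genes in several cases. RPL22L1, whose expression is held down by Rpl22 protein in mice, had 49.3, 49.7 and 54.4 CPM after rakicidin A, 42.1, 42.2 and 43.6 CPM after BE-43547A1 and 31.7, 30.7 and 23.5 CPM in DMSO. All treated libraries were above DMSO, and rakicidin A was above BE-43547A1. Relative to DMSO, RPL22L1 had a log2 fold change of 0.84 ± 0.09 after rakicidin A (edgeR, adjusted p = 9.95e-08) and of 0.58 ± 0.09 after BE-43547A1 (adjusted p = 9.08e-06). The count of RPL22L1 per count of RPL22 was 0.314, 0.343 and 0.343 after rakicidin A, 0.272, 0.245 and 0.2496 after BE-43547A1 and 0.130, 0.118 and 0.100 in DMSO. This ratio does not depend on scaling, and it was 2.87 times that of DMSO after rakicidin A and 2.20 times after BE-43547A1, with no overlap between groups (exact permutation test, two-sided p = 0.1, the smallest that 3 against 3 libraries allow). Reads that were ambiguous or placed at several sites are in neither count, so this ratio and those below are not read as ratios of mRNA. The part in these ratios of the lower share of such multiply placed reads after rakicidin A was not tested. Rakicidin A exceeded BE-43547A1 for RPL22L1 by 0.26 ± 0.08 (edgeR, adjusted p = 0.0166), a call that was lost with total counts alone (0.14) and without rakicidin A replicate 3 (adjusted p = 0.0720) or BE-43547A1 replicate 1 (0.0584).

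RPL26L1, a near copy of RPL26, had 23.4, 20.9 and 23.2 CPM after rakicidin A, 15.6, 14.5 and 15.7 CPM after BE-43547A1 and 13.1, 15.2 and 12.6 CPM in DMSO. It rose after rakicidin A (0.73 ± 0.09, edgeR, adjusted p = 5.81e-07), and BE-43547A1 overlapped DMSO (0.17 ± 0.09, adjusted p = 0.0847). Without DMSO replicate 2 it passed after BE-43547A1 as well (0.25, adjusted p = 0.0205). RPL26 itself ranged from 92.0 to 218 CPM within DMSO and passed in no comparison with all libraries. Without DMSO replicate 1 it was lower after rakicidin A (-0.60, adjusted p = 8.43e-05) and after BE-43547A1 (-0.49, 0.000527), against -0.32 and -0.20 with it. RPL26 also passed as lower after both compounds with total counts alone (-0.68 and -0.44). RPL7L1 had 186, 193 and 196 CPM after rakicidin A, 120.1, 114 and 119.9 CPM after BE-43547A1 and 169, 168 and 149.7 CPM in DMSO. The groups did not overlap: rakicidin A was highest and BE-43547A1 lowest, with 0.24 ± 0.06 (edgeR, adjusted p = 0.0014) and -0.46 ± 0.06 (adjusted p = 1.11e-06) against DMSO and 0.70 ± 0.06 (adjusted p = 2.50e-08) between the compounds. The value after rakicidin A turned to -0.12 with total counts alone. The count of RPL7L1 per count of RPL7 was 12.3, 15.6 and 13.5 after rakicidin A, 7.73, 7.17 and 6.95 after BE-43547A1 and 7.61, 8.29 and 8.96 in DMSO.

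RPS27L, the paralog of RPS27, had 46.8, 41.5 and 42.9 CPM after rakicidin A, 39.2, 41.0 and 41.0 CPM after BE-43547A1 and 63.1, 66.1 and 52.4 CPM in DMSO. It fell after both compounds while RPS27 rose. Against DMSO, the log2 fold change was -0.47 ± 0.08 after rakicidin A (edgeR, adjusted p = 3.23e-05) and -0.58 ± 0.08 after BE-43547A1 (adjusted p = 1.77e-06). Per count of RPS27 the count of RPS27L was 4.63, 5.71 and 6.49 after rakicidin A, 4.43, 3.86 and 5.44 after BE-43547A1 and 11.2, 14.0 and 10.0 in DMSO, lower in each treated library than in each DMSO library. RPL39L, abundant in testis, had 11.1, 13.0 and 12.3 CPM after rakicidin A, 15.2, 15.8 and 14.2 CPM after BE-43547A1 and 18.9, 19.6 and 15.2 CPM in DMSO. Its log2 fold change from DMSO was -0.56 ± 0.10 after rakicidin A (edgeR, adjusted p = 7.65e-05) and -0.25 ± 0.09 after BE-43547A1 (adjusted p = 0.0263). The call after BE-43547A1 was lost without BE-43547A1 replicate 1 (adjusted p = 0.0672) or 3 (0.115) or DMSO replicate 1 (0.0800) or 2 (0.121). Between the compounds RPL39L differed by -0.31 ± 0.10 (edgeR, adjusted p = 0.0158), lost without rakicidin A replicate 1 (adjusted p = 0.0965) or BE-43547A1 replicate 2 (0.0655).

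RPL36AL, the autosomal copy of X-linked RPL36A, had 134, 126 and 133 CPM after rakicidin A, 115, 119 and 121 CPM after BE-43547A1 and 138, 130.5 and 121 CPM in DMSO. It did not pass after rakicidin A (0.01 ± 0.06, edgeR, adjusted p = 0.867), and the value turned to -0.35 with total counts alone. After BE-43547A1 it was -0.14 ± 0.06 (adjusted p = 0.0447 by edgeR), a call that was lost with RLE factors, no filter, DESeq2, the 6 libraries alone or the replicate block. Of the 9 single libraries, only leaving out DMSO replicate 3 kept it, and the others gave adjusted p values up to 0.213. Rakicidin A was higher than BE-43547A1 by 0.15 ± 0.06 (edgeR, adjusted p = 0.0449), lost with total counts alone (0.03), with no filter, with the block and without replicate 1 (adjusted p = 0.121) or 3 (0.107) of rakicidin A or replicate 1 (0.177), 2 (0.0861) or 3 (0.0508) of BE-43547A1. Per count of RPL36A the count of RPL36AL was 8.81, 8.56 and 8.88 after rakicidin A, 13.8, 14.4 and 11.8 after BE-43547A1 and 4.39, 3.78 and 3.75 in DMSO. The ratio was thus 2.20 times that of DMSO after rakicidin A and 3.35 times after BE-43547A1, without overlap (exact permutation test, two-sided p = 0.1 each).

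**Figure D5:**
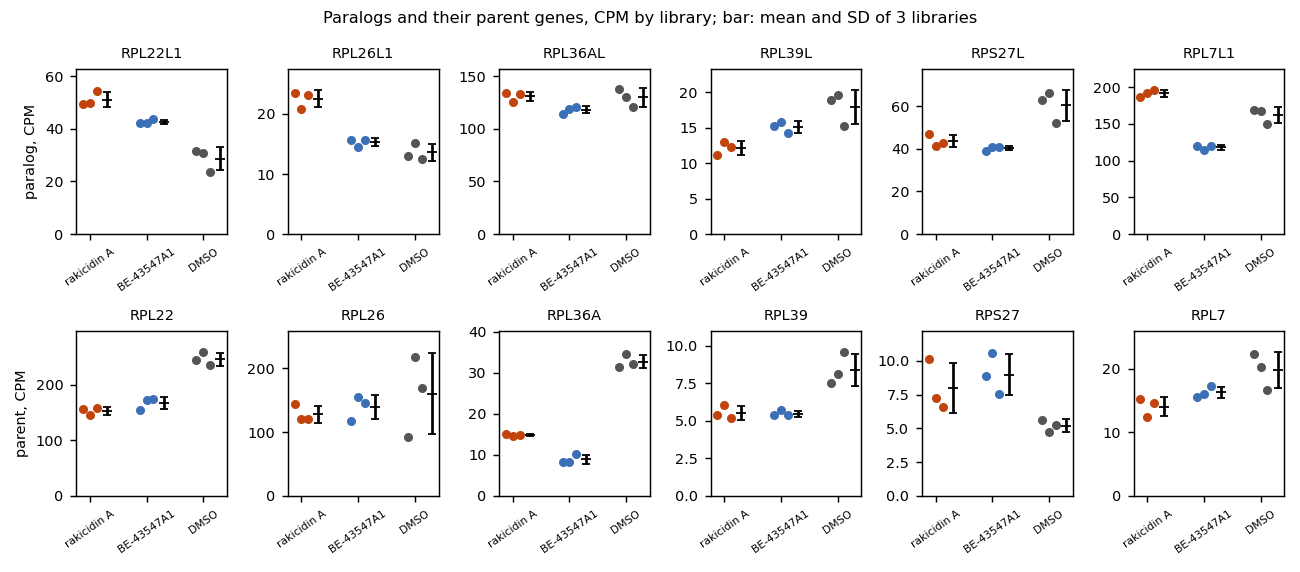
CPM (vertical axes start at 0) of 6 paralogs (upper row) and their parent genes (lower row) in each library by group, with black bars for mean and SD of 3 libraries. RPL22L1 is higher and RPL22 lower in treated libraries than in DMSO, while RPS27L is lower and RPS27 higher.

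Counts of RPL10L and RPL3L were too low for a test. RPL10L, which stands in for RPL10 in the male germ line of mice, had 0 counts in every library. RPL3L, the muscle form of RPL3, had 0, 3 and 2 counts after rakicidin A, 7, 10 and 8 after BE-43547A1 and 1, 4 and 2 in DMSO. Read-through rows that overlap RPL17 and RPS10 are at 0 in every library as well, so the levels of these members are uncertain in the same way as that of RPL36A.

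Rows of pseudogenes named after members were also fitted. Of the 176 tested, 24 rose and 17 fell after rakicidin A, 68 rose and 22 fell after BE-43547A1, and 16 were higher and 60 lower after rakicidin A than after BE-43547A1, beside the shares of all features given above. By total counts alone 7 rose and 87 fell after rakicidin A, 41 rose and 46 fell after BE-43547A1, and 8 were higher and 82 lower between the compounds. With TMM their median log2 fold changes were -0.04, 0.21 and -0.24, beside -0.05, 0.20 and -0.22 for the 76 canonical tested members. Reads of a gene and of its processed copies differ by few bases, so reads can be placed on either, and these rows are uncertain.

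Related gene lists are read against the same shares of all features. Of 28 tested genes for other mRNAs with the pyrimidine tract, mostly for translation factors, 18 rose and 5 fell after rakicidin A (median 0.24), 18 rose and 2 fell after BE-43547A1 (0.20), and 8 were higher and 9 lower after rakicidin A than after BE-43547A1 (-0.05). Scaled by total counts alone, these counts were 5 and 13, 9 and 10, and 5 and 15. EEF2, the factor that moves the ribosome along, had 1402, 1397 and 1349 CPM after rakicidin A, 1685, 1647 and 1528 CPM after BE-43547A1 and 913, 889 and 884 CPM in DMSO, with 0.63 ± 0.05 after rakicidin A (edgeR, adjusted p = 4.45e-09) and 0.86 ± 0.05 after BE-43547A1 (adjusted p = 5.17e-11). EIF3A, a scaffold of the initiation factor eIF3, had 0.94 and 0.72, and EIF3F had 0.81 and 0.47, all past the threshold. FAU, which encodes a small ribosomal protein fused to a ubiquitin-like protein and lies outside the symbol pattern, also stood on this list. FAU had 0.18 after rakicidin A and 0.55 after BE-43547A1, and the compounds differed by -0.38 ± 0.07 (edgeR, adjusted p = 0.000168).

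In the lists that follow, values in parentheses after a gene are log2 fold changes against DMSO, rakicidin A before BE-43547A1. Regulators of mTORC1 and of the tract rose in 14 of 26 tested cases and fell in 4 after rakicidin A (median 0.30), rose in 14 and fell in 8 after BE-43547A1 (0.23), and were higher in 12 and lower in 3 after rakicidin A than after BE-43547A1 (0.09). SESN2, an inhibitor of mTORC1 under amino acid shortage, had 315, 318 and 304 CPM after rakicidin A, 275, 270.4 and 280.0 CPM after BE-43547A1 and 19.9, 19.1 and 19.9 CPM in DMSO. Its log2 fold change was 3.99 ± 0.06 (edgeR, adjusted p = 1.40e-19) and 3.81 ± 0.06 (adjusted p = 2.20e-19). DEPTOR, another inhibitor, fell (-1.02 and -1.14), as did EIF4EBP2, a brake on cap binding (-0.61 and -0.82). LARP1B, a relative of LARP1, rose (1.90 and 1.05), while LARP1 itself had -0.03 after rakicidin A without passing and -0.20 after BE-43547A1. MYC, which drives ribosome production, rose (1.84 and 1.59). By total counts alone 8 of the list rose and 11 fell after rakicidin A, 10 rose and 11 fell after BE-43547A1, and 6 were higher and 9 lower between the compounds.

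Chaperones of ribosomal proteins and assembly helpers rose in 15 of 26 cases and fell in 4 after rakicidin A (median 0.35), rose in 11 and fell in 9 after BE-43547A1 (0.07), and were higher in 16 and lower in 1 after rakicidin A than after BE-43547A1 (0.26). ZNF622 and SBDS, which act on late large subunits, rose (2.07 and 1.57 for ZNF622, 1.21 and 0.91 for SBDS). HEATR3, which carries RPL5 to the nucleus, and PDCD2, a chaperone of the small subunit protein RPS2, fell (-0.72 and -1.03, -0.37 and -0.60). Ribosome quality control genes rose in 14 of 24 cases and fell in 4 after rakicidin A (0.27), rose in 13 and fell in 8 after BE-43547A1 (0.24), and were higher in 16 and lower in 2 after rakicidin A than after BE-43547A1 (0.22). LTN1, the ubiquitin ligase for stalled chains, rose (1.38 and 0.81). EIF2AK3, the kinase PERK that slows initiation under endoplasmic reticulum stress, rose (3.75 and 3.04), and EIF2AK4, the amino acid sensor GCN2, fell (-0.44 and -0.43). Under total counts the chaperone list had 11 higher and 10 lower, 7 and 14, and 11 and 4, and the quality control list 9 and 11, 8 and 11, and 11 and 2, in the order of the 3 comparisons.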

How the data were processed

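Total RNA of 9 PANC-1 samples was sequenced as paired reads of 76 bases on an Illumina NextSeq, per the labels' protocols. The submitters' processing notes name TopHat2 and HTSeq and the builds GRCh37 and hg19. For strand setting and order of steps, the sources used here give nothing. The authors deposited raw counts, 1 value for each feature in each library, not normalized. Summary entries that name no gene stayed out of library sizes. As a share of the whole table, reads without a feature were 16.4 to 18.0% after rakicidin A, 18.1 to 19.2% after BE-43547A1 and 20.3 to 20.8% in DMSO, and ambiguous reads 2.65 to 2.94% over all libraries. Those ambiguous or placed at several sites are in no gene's count, which touches members with pseudogenes or overlapping genes.

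The test was that of edgeR 4.0.16 under R 4.3.3: filterByExpr, TMM scaling, 1 mean per group over all 9 libraries (6 residual degrees of freedom), a quasi-likelihood test, and Benjamini-Hochberg adjustment over 22353 features at 0.05. Each standard error is the log2 fold change divided by the root of its F statistic, and intervals are at 95%. Alternatives were no filter, RLE factors, limma-voom (limma 3.58.1), total counts alone, DESeq2 1.42.0, the 6 libraries of a comparison, a replicate block, mitochondrial and ribosomal RNA left out, and each library left out. The pipeline was tested on simulated data. The labels do not say whether replicate numbers pair the libraries. Correlations of deviations from group means were -0.0566 to 0.122 for same-numbered and -0.097 to 0.092 for differently numbered libraries, which does not decide it. No 2 libraries agreed within sampling noise.

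Coding lengths, gene types and chromosomes came from GENCODE v29, and start regions from the RefSeq promoter table (GRCh38.p14), in which 68 members matched. Build GRCh37 coordinates of the counted features are not printed. The members and lists were chosen with earlier results of these data known. Named were, in each comparison, the 6 canonical members with the largest rise and the 6 with the largest fall among called ones averaging 2 CPM or more (only 3 rose between the compounds), all paralogs, the stalk proteins and RPSA, and from each related list up to 3 genes per direction that passed with both compounds, by the smallest product of unadjusted p, of which some are printed. The members RPL4, RPL5, RPL7, RPL11, RPL26 and RPL38, the other members named in brief, and LARP1 and FAU were added after their values were seen. Some items are not reported here. Plots used matplotlib 3.10.9 (python 3.11.15).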

Additional observations from a re-analysis of the deposited data

How the results depend on the processing

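With total counts alone, members that rose numbered 3 and those that fell 66 after rakicidin A, 19 and 32 after BE-43547A1, and 4 were higher between the compounds. That scaling turned 9 of the 16 rises after rakicidin A and 10 of the 42 after BE-43547A1, and 3 and 19 of them still passed. All falls against DMSO, 23 and 14, still passed, which is no separate check, since total counts alone lowered the log2 fold changes against DMSO in general. Among the values named by rule that passed with TMM or with total counts alone, the latter turned 4. These were RPL21 (-0.076), RPL36AL (-0.35) and RPL7L1 (-0.12) after rakicidin A and RPLP0 (-0.22) after BE-43547A1. Of those that passed with neither, RPL26L1 after BE-43547A1 turned from 0.17 to -0.07 and RPS27L between the compounds from 0.11 to -0.005. RPLP1 after rakicidin A ranged from -0.21 without DMSO replicate 1 to 0.23 without DMSO replicate 3. No other alternative moved a count of members by over 1.5 times. With single libraries left out, 14 to 18 members rose and 16 to 28 fell after rakicidin A, 38 to 45 rose and 10 to 17 fell after BE-43547A1, and rakicidin A was higher than BE-43547A1 for 5 to 9 and lower for 32 to 47. The share of counts on members was 1.24 to 1.28% after rakicidin A, 1.58 to 1.61% after BE-43547A1 and 1.62 to 1.71% in DMSO. With the replicate number as a block, 17 members rose and 24 fell after rakicidin A, 43 rose and 13 fell after BE-43547A1, and 7 were higher and 41 lower between the compounds. Over 65 values of named members, 1018 of 1101 alternatives kept the side of the threshold, and the direction as well where the value was called. A value called in neither fit counted as kept whatever its direction. The block lost RPL36AL in 2 comparisons and gained RPSA in 2. RPL10L and RPL3L had too few counts to be tested.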

Other observations

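Spread between libraries of a group differed by gene. The median coefficient of variation of CPM was 4.80% after rakicidin A, 4.65% after BE-43547A1 and 9.31% in DMSO for the 83 tested members, and 8.93%, 8.66% and 11.0% for all 22353 tested features. Among those above 20% were RPL10, RPS27 and RPSA after rakicidin A, RPLP2, RPS10 and RPSA after BE-43547A1, and RPL26, RPLP1, RPS15, RPS16, RPS24 and RPSA in DMSO. RPL10, X-linked and mutated in some leukemias, had 118, 118 and 70.5 CPM after rakicidin A, 114, 115 and 114 CPM after BE-43547A1 and 97.5, 91.3 and 79.8 CPM in DMSO. Only replicate 3 of the rakicidin A libraries was low for it. RPL10 did not pass after rakicidin A against DMSO with all libraries (0.19, edgeR, adjusted p = 0.196). Without that replicate it was called higher (0.42, adjusted p = 0.000123).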
